A study of Rattus norvegicus with 6 samples.

Results

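Histone genes were examined in RNA selected for polyA tails, taken from cortical neural progenitors of Sprague Dawley rats at embryonic day 14. The genes were chosen by name alone, as every gene whose name begins with Hist1 to Hist4, H1f, H2af or H3f, which gave 35 of the 17337 gene names listed. Of these, 24 are clustered Hist genes, the class that holds the replication-dependent histones, and 11 are histone variant genes of the H1f, H2af and H3f families. Class follows the name, so the 24 include *Hist1h1t*, *Hist1h2aa* and *Hist1h2ba*, known as testis genes. The cells came from embryos of either sex, were grown from dissected cortices with bFGF and EGF, with no further treatment given in the labels, and were usually collected after a second passage. The 4 libraries comprise A1 and A2 of biological replicate A and B1 and B2 of biological replicate B, so the technical libraries of a replicate were averaged first and every mean ± SD is over n = 2.

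Histones are the proteins around which DNA is wound, with H2A, H2B, H3 and H4 in the nucleosome core and H1 on the linker DNA. Most clustered histone genes are short, lack introns and are transcribed during DNA replication, and their mRNAs usually end in a stem-loop that is bound by SLBP instead of a polyA tail. Variant genes lie outside the clusters, and most are expressed also outside S phase and give mainly polyadenylated mRNA. Some clustered genes are known to give polyadenylated transcripts as well, so the classes are not cleanly split by the polyA tail. The comparison therefore asks how each class appears in libraries that were selected for polyA tails.

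The mRNA level is given as FPKM, fragments scaled to transcript length and library depth, so that levels of genes of different length can be set side by side. The depth, read as the coverage that corresponds to 1 FPKM, was 22.7 to 24.4 in A1, A2 and B1 and 6.83 in B2, which makes low values of B2 the least certain. The progenitor markers *Sox2*, *Nes*, *Pax6*, *Hes1*, *Hes5* and *Vim* were all present, with means from 33.9 to 3291 FPKM. The 5 neuronal markers ranged from 0.292 to 118 FPKM, with *Tubb3* highest, and 5 markers of endothelial, microglial and blood cells were at means of at most 0.719 FPKM. All 6 mesenchymal markers examined were present and higher in replicate B, with *Col1a1* at 163 FPKM in A and 735 FPKM in B. The median over the markers was 229 FPKM for progenitor and 98.9 FPKM for mesenchymal genes in A, and 114 and 476 FPKM in B. The highest progenitor marker, *Vim*, is also expressed by mesenchymal cells. Both replicates thus held progenitor and mesenchymal transcripts, and the order of the medians was reversed in B.

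The 2 classes lay far apart. The median level was 1.49 ± 0.68 FPKM (SD, n = 2) for the 24 clustered genes and 109 ± 33.7 FPKM for the 11 variant genes. The ratio of the medians averaged 76.1 ± 12.1, with 67.5 for A and 84.7 for B. In every library the ratio exceeded 59, from 59.2 in B1 to 101.8 in B2. A mean of at least 1 FPKM was found for 15 clustered genes (62.5%) and 8 variant genes (72.7%), against 60.5% of all genes, so the classes did not stand apart by detection at this threshold. At 10 FPKM or more there were 4 clustered and 8 variant genes, against 38.3% of all genes, and at 100 FPKM or more 1 clustered and 6 variant genes, against 6.14%. Genes of a class are not replicates, and with 2 replicates of 1 condition no test was made.

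**Figure D1:**
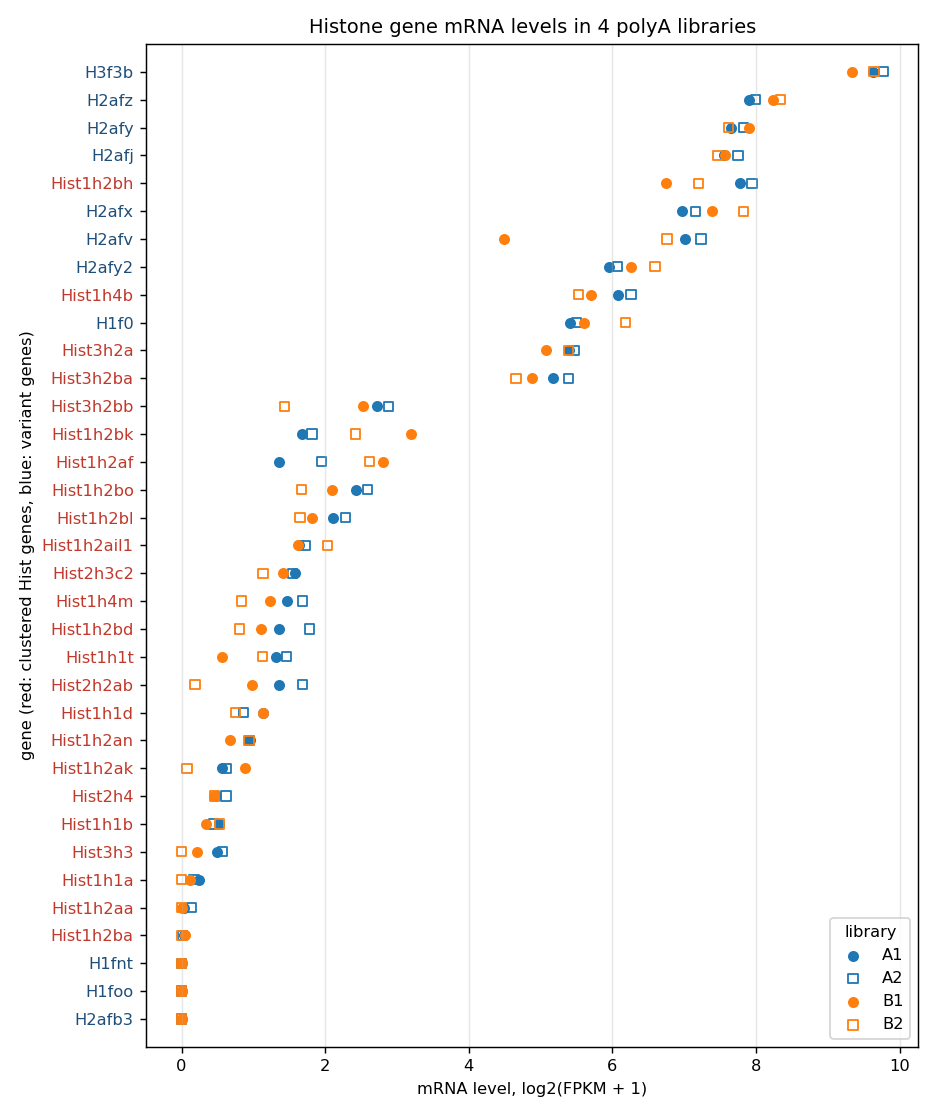
mRNA level of each of the 35 histone genes as log2(FPKM + 1), with 1 point for each of the 4 libraries and genes ordered by mean FPKM. Of the 12 genes whose mean reached 10 FPKM, 8 are variant genes (blue names) and 4 are clustered genes (red names), and *H2afv* is lowest in B1, at 21.4 FPKM.

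*H3f3b*, which encodes the replacement histone H3 that is deposited outside replication, had the highest level of the 35 genes. In rn6 it spans 104573662 to 104575887 of chromosome 10 (minus strand). Its level was 791 and 874 FPKM in the A libraries and 647 and 798 FPKM in the B libraries. The libraries of A and B overlapped, and the mean of 778 ± 77.6 FPKM ranked 116 among all genes. *H3f3b* alone made up 35.4% ± 1.48 of the summed FPKM of the 35 genes. Among the listed H3 genes its share of the summed FPKM was 99.8%, since *Hist2h3c2* had 1.69 ± 0.362 FPKM and *Hist3h3* had 0.262 ± 0.260 FPKM. No Hist1h3 gene and no *H3f3a* was listed, and mRNA without a polyA tail is not selected. The value is therefore not a share of all H3 mRNA in the cells. With *Hist1h2ail1* counted as an H3 gene the share was 99.4%.

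Among the H2A variants *H2afz* was the highest. Its product H2A.Z is placed near promoters, and it spans 243105230 to 243107333 of chromosome 2 (plus strand). It had 237 and 253 FPKM in A1 and A2 against 299.7 and 324 FPKM in B1 and B2, a mean of 278 ± 46.9 FPKM. Both libraries of B were above both of A. *H2afy* encodes macroH2A1, an H2A with a large additional domain that is linked to repressed chromatin. Its 4 values, from 195 to 237 FPKM, overlapped between the replicates and gave 214 ± 2.71 FPKM. *H2afz* was above *H2afy* in each of the 4 libraries.

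*H2afx* (chromosome 8, 48665652 to 48666981, plus strand) encodes H2AX, which is phosphorylated at DNA breaks. It was at 125 and 141 FPKM in A1 and A2 against 167 and 225 FPKM in B1 and B2, with a mean of 165 ± 44.5 FPKM and no overlap between the replicates. *H2afy2*, the gene of the second macroH2A, showed the same order at a lower level, with 61.2, 66.2, 75.3 and 95.5 FPKM in A1, A2, B1 and B2. The ratio of *H2afy* to *H2afy2* was 2.93 ± 0.567, and it was lowest in B2, at 2.04. *H2afj*, an H2A variant gene, had 191 ± 12.9 FPKM and overlapping replicates, and it did not differ from *H2afx* beyond the spread of the latter. The tables give *H2afj* a span of 618390 bp and a coverage per FPKM that is 12.2 in A1, where the median gene has 24.3, so its level may be counted over more than 1 locus and is uncertain.

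*H2afv* (chromosome 14, 86687782 to 86706626, minus strand), which encodes the second H2A.Z isoform, had 128 and 149 FPKM in A1 and A2 but 21.4 FPKM in B1 and 107 FPKM in B2. Its value in B1 was the lowest of the 4, and B2 was 5.02 times B1 although both come from the same replicate. Only *H2afv* among the variant genes met the criteria for a difference between replicates, a mean not under 1 FPKM, libraries that do not overlap and log2(FPKM + 1) means 1 or more apart, a scale that understates changes of low genes. It was higher in A by 2.16 times, by 1.29 times without B1 and by 6.49 times without B2. Among all genes above the same mean level, 1.42% were higher in A by these criteria. Without B1, or without A2 at 1.99 times, *H2afv* no longer met them. Of the 10481 genes above that level, 293 differed by at least 1 on this scale between B1 and B2, and among the histone genes these were *H2afv* and *Hist3h2bb*. The ratio of *H2afz* to *H2afv* was 1.85 in A1, 1.69 in A2 and 3.01 in B2, and 14.0 in B1.

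The H1 variants were led by *H1f0*, the linker histone of slowly dividing and differentiating cells. It spans 120260776 to 120262631 of chromosome 7 (plus strand) and had 41.3, 44.2, 47.5 and 71.6 FPKM in A1, A2, B1 and B2. Both libraries of B were above those of A, and the mean was 51.1 ± 11.8 FPKM. *H1foo*, the oocyte linker histone, *H1fnt*, a testis linker histone, and *H2afb3*, an H2A variant gene, were listed at 0 FPKM in all 4 libraries. At 0 in every library were 13.3% of all genes. *H1f0* provided 94.8% ± 2.42 of the H1 mRNA of the listed genes, and its share was between 92.6% and 96.9% in the libraries.

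The clustered genes lie in 3 places. On chromosome 17 of rn6 there are 17 Hist1 genes between 43422454 and 44841382, on chromosome 2 there are 3 Hist2 genes between 198359754 and 198418029, and on chromosome 10 there are 4 Hist3 genes between 45289741 and 45305106. No Hist4 gene was listed. Together the clustered genes contributed 15.5% ± 3.92 of the summed FPKM of the 35 genes, with 18.2% for A and 12.7% for B.

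A few of the clustered genes carried nearly all of this. *Hist1h2bh*, an H2B gene on the minus strand of chromosome 17 from 43679925 to 43689311, had 218 and 245 FPKM in A1 and A2 against 106 and 145 FPKM in B1 and B2. Its mean of 179 ± 74.7 FPKM ranked 552 among all genes, and it held 51.3% ± 6.00 of the clustered FPKM. *Hist1h4b*, an H4 gene also on chromosome 17 (44522144 to 44526587, plus strand), had 66.7, 75.5, 51.0 and 45.1 FPKM in A1, A2, B1 and B2. For both genes each library of A was above each of B. *Hist3h2a*, an H2A gene on chromosome 10 (45297603 to 45299155, plus strand), was at 40.9 and 43.3 FPKM in A1 and A2 and at 32.6 and 40.8 FPKM in B1 and B2, so its replicates nearly touched. *Hist3h2ba*, an H2B gene of the same cluster (45289741 to 45290370, plus strand), had 34.9 and 40.8 FPKM in A and 28.5 and 24.2 FPKM in B. These 4 genes made up 90.2% ± 2.22 of the summed FPKM of the 24, and 85.9% in B1, where the share was lowest.

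The other 20 clustered genes had means from 0.0172 to 4.59 FPKM. *Hist3h2bb* (4.59 ± 1.95 FPKM), *Hist1h2bk* (4.31 ± 2.74), *Hist1h2af* (3.87 ± 2.36), *Hist1h2bo* (3.71 ± 1.39), *Hist1h2bl* (2.95 ± 0.888) and *Hist1h2ail1* (2.39 ± 0.273) followed the top 4, and the levels of these 6 did not differ beyond their spread between neighbours. RefSeq gives H3 histone as a synonym of *Hist1h2ail1*, so its type is uncertain. Short clustered genes also have near-identical copies among which reads can be split, which makes their single levels uncertain. The group of H1 genes had the lowest median of the types, with *Hist1h1t*, the testis linker histone, at 1.23 ± 0.558 FPKM, *Hist1h1d* at 0.975 ± 0.0534, *Hist1h1b* at 0.379 ± 0.0324 and *Hist1h1a* at 0.10 ± 0.0799 FPKM. The neighbours *Hist1h2aa* and *Hist1h2ba*, known as testis histone genes, were at 0.0315 and 0.0172 FPKM. Between 0 and at most 0.0977 FPKM was read for these testis genes in each library. Of the 24 clustered genes none was at 0 in every library and 20 were above 0 in all 4, against 74.5% of all genes.

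By histone type, the H2B and H4 FPKM came from clustered genes alone, since no H2B or H4 variant is among the listed genes. The 8 H2B genes summed to 288 FPKM for A and 168 FPKM for B, of which *Hist1h2bh* held 77.7% ± 3.79. The 3 H4 genes summed to 73.6 FPKM in A and 49.5 FPKM in B, with 96.9% ± 0.318 from *Hist1h4b*. For H2A the order was the reverse, with 95.5% ± 0.391 of the listed FPKM from the variant genes and most of the clustered part from *Hist3h2a*. The clustered H2A genes summed to 48.3 ± 2.32 FPKM and the H2A variant genes to 1025 ± 43.9 FPKM.

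**Figure D2:**
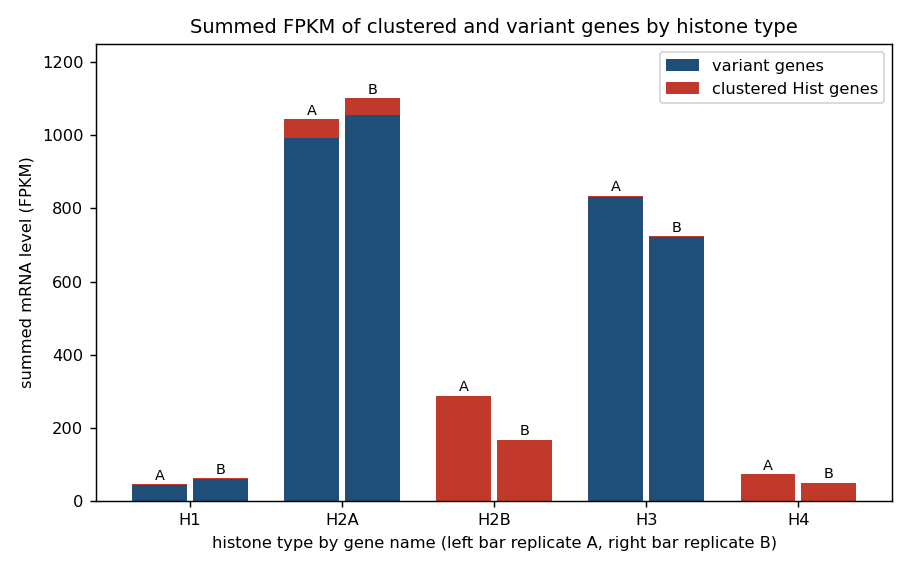
Summed FPKM of the listed histone genes by histone type, with variant genes in blue, clustered genes in red, and replicates A and B as the left and right bar of each pair. Variant genes fill nearly all of the H1, H2A and H3 bars, and the H2B and H4 bars, 49.5 to 288 FPKM high, hold clustered genes alone.

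The level of clustered genes was then set against the span of the gene in the tables. Of the 24 genes, 13 spanned at most 500 bp, which is about the coding length of a histone of the nucleosome core. Their means were at most 4.31 FPKM with a median of 1.45 ± 0.702 FPKM. The 7 genes over 500 and up to 1000 bp had a lower median, 0.922 ± 0.128 FPKM. Among these 7 were the 4 clustered H1 genes, with spans of 660 to 745 bp and a median of 0.650 FPKM. Histone type and span were thus not separated in this bin. Spans over 1000 bp were given for 4 genes. Of these, *Hist1h2bh* (9387 bp), *Hist1h4b* (4444 bp) and *Hist3h2a* (1553 bp) were the 3 highest clustered genes, and *Hist1h2bo* (1614 bp) had 3.71 FPKM. The gene in the top 4 with a shorter span was *Hist3h2ba*, with 630 bp. A span is the distance from the first to the last annotated base and can include introns and untranslated parts. Over all 24 genes the Spearman correlation of span and level was 0.287. It is a description over genes that share the same libraries, and it is weak.

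**Figure D3:**
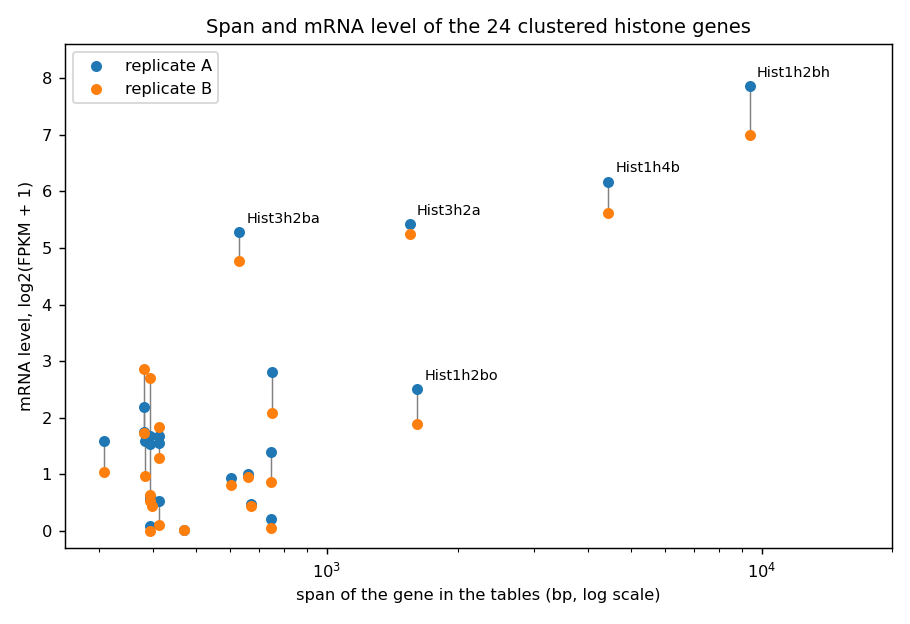
Span of each of the 24 clustered histone genes in the tables (bp, log scale) against its level as log2(FPKM + 1), with replicate A in blue, replicate B in orange and a line joining the 2 values of a gene. The 13 genes of at most 500 bp lie in the lower left, with means of at most 4.31 FPKM, and *Hist1h2bh*, *Hist1h4b* and *Hist3h2a* lie above them at longer spans.

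Promoters are shown for 3 of the 4 highest clustered genes, for a low clustered H3 gene and for the variant genes *H2afv* and *H1f0*, because they differ in the boxes that histone promoters are known for. The 250 bases before the start site were taken from the RefSeq promoter set of the build GRCr8, which is not the build of the tables. A single RefSeq entry matched 31 of the 35 names, a promoter entry on the same chromosome and strand was found for 19 clustered and 10 variant genes, and the gene length was within 20% of that in the tables for 11 and 6 of them. Only genes of this last set are shown, in lower case, and capitals mark matches to the CCAAT box, to the TATAAA box and to the octamer ATTTGCAT on either strand. None of these motifs contains another. *Hist1h2bh*, the highest clustered gene, matched several RefSeq entries, as did *Hist1h2bl*, *Hist1h1d* and *H2afx*, and it is neither shown nor counted. The entry for *Hist1h4m* lay on the other strand and was left out, a rule added after the data were seen.
*Hist3h2a* (chr10:44233033-44233282, plus strand): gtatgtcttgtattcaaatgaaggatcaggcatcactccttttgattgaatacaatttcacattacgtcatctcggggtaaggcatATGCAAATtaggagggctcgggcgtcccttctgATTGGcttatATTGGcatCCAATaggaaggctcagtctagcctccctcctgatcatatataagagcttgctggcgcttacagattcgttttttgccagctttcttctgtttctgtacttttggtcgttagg
*Hist3h2ba* (chr10:44225171-44225420, plus strand): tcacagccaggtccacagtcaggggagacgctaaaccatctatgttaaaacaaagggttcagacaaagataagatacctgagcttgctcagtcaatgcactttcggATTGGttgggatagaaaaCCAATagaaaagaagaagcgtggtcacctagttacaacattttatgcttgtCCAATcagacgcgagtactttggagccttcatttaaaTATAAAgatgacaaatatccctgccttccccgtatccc
*Hist1h4b* (chr17:47175996-47176245, plus strand): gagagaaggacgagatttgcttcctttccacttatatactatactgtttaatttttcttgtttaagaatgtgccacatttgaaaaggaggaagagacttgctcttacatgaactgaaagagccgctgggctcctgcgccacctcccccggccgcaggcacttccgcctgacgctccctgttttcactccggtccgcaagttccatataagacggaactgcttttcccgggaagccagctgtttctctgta
*Hist2h3c2* (chr2:186525912-186526161, plus strand): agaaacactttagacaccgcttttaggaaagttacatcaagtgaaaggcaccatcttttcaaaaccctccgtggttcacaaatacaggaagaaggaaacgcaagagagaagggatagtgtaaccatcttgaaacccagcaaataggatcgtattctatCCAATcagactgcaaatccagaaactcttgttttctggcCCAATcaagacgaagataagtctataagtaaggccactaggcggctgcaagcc
*H2afv* (chr14:85526069-85526318, minus strand): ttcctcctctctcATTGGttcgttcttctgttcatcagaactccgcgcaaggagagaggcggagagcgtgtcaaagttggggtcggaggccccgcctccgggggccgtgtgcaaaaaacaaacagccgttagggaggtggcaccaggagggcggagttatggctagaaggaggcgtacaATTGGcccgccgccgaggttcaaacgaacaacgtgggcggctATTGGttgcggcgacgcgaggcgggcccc
*H1f0* (chr7:112473030-112473279, plus strand): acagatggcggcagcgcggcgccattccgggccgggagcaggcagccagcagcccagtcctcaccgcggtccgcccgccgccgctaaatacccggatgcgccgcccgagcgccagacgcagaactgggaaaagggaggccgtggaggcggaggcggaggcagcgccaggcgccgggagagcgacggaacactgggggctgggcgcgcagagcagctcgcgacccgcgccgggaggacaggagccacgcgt

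Over all matched promoters CCAAT was found in 18 of 19 clustered and 6 of 10 variant genes, against 34.3% of 27457 promoters of the same length. In the set of similar gene length these were 10 of 11 and 2 of 6, so the share of the variant genes depended on this filter. The filter left out *H3f3b* with 4 CCAAT matches and *H2afz* and *H2afj* with 3 each. TATAAA was found in 11 of 19 clustered and 1 of 10 variant promoters, against 13.1% of all, and in 5 of 11 and 0 of 6 with the filter. In *Hist1h2bk*, *Hist1h2af*, *Hist1h2bo* and *Hist1h2an* the only match was on the opposite strand, 141 to 236 bases before the start. *Hist1h2af* and *Hist1h2bo* are among those that passed the filter. The remaining clustered genes with TATAAA had a match on the strand of the gene, 28 to 54 bases before the start. ATTTGCAT was found in 8 of 19 and 1 of 10, against 1.5%, and in 5 of 11 and 0 of 6 with the filter. *Hist3h2a* and *Hist3h2bb* lie head to head with 217 bases between them in rn6. In GRCr8 the promoter entry of *Hist3h2bb* also held the octamer and 3 CCAAT boxes, each on the opposite strand to those of *Hist3h2a*, and the promoters of this pair are not independent. The same holds for *Hist1h2aa* and *Hist1h2ba*, which lie head to head with 264 bases between them in rn6 and whose promoter entries cover nearly the same bases, so both pairs count their sites for each gene. *Hist3h2a* had 7.34, 6.80 and 6.89 times the level of *Hist3h2bb* in A1, A2 and B1, and 24 times in the shallow library B2. The promoter of *Hist1h4b*, the second highest clustered gene, held none of the motifs in these letters. *H3f3b* was the 1 variant gene with TATAAA and with the octamer. A match is a description of the letters in this window.

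Replicates A and B differed in the clustered genes more one way than the other. The mean was lower in B for 20 of the 24 clustered genes, against 8306 of all 17337 genes. Of the 24, 17 had both libraries of A above both of B, against 26.3% of all genes. Above the 1 FPKM threshold these were 12 of 15 clustered genes, against 32% of all genes there, and 2 of the 15 had the reverse order, against 28.1%. The reverse, both libraries of B above both of A, was found for 2 clustered genes, against 21% of all genes. The median difference of B minus A was -0.23 on the log2(FPKM + 1) scale, where the median of all genes was 0, and this scale understates the change of low genes. It was -0.52 over the 15 clustered genes above 1 FPKM, where all genes had -0.03, and -0.54 over all 24 with a pseudocount of 0.1. The summed FPKM of the clustered genes was 417 in A and 267 in B. For the variant genes the sums were 1869 in A and 1838 in B. Both libraries of B were above those of A for 4 of the 11, *H2afz*, *H2afx*, *H2afy2* and *H1f0*, against 21% of all genes. Above 1 FPKM these were 4 of 8, against 28.1%. The reverse held for 1 variant gene, *H2afv*, against 26.3% of all genes. The genes were chosen by name and the difference was not tested, since A and B are replicates of 1 condition.

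None of the 17 clustered genes reached a difference of 1 on this scale. As ratios of FPKM, *Hist1h2bh* was 1.84 times and *Hist1h4b* 1.48 times higher in A. Over the 12 genes above 1 FPKM the ratios ranged from 1.15 for *Hist3h2a* to 3.39 for *Hist2h2ab*. Single libraries of B decided some of these ratios. *Hist2h2ab* had 0.974 FPKM in B1 and 0.138 FPKM in the shallow library B2, and its ratio was 1.94 without B2 and 13.7 without B1. *Hist1h1t* went from 1.95 to 3.43 without B2, and *Hist3h2bb* from 1.85 to 3.51 without B1. For the other 9 of the 12 genes leaving out any 1 library moved the ratio by less than 1.5 times. *Hist1h2bk* and *Hist1h2af* met the criteria in the other direction. *Hist1h2bk*, an H2B gene, had 2.21 and 2.52 FPKM in A1 and A2 and 8.15 and 4.34 FPKM in B1 and B2, and *Hist1h2af*, an H2A gene, had 1.55, 2.85, 5.96 and 5.12 FPKM. The replicates did not overlap for either gene, and both were higher in B, by 2.64 and 2.51 times. Among all genes above 1 FPKM, 4.78% were higher in B by these criteria. With B1 left out neither gene met them, at 1.83 times for *Hist1h2bk* and 2.32 times for *Hist1h2af*, and with A1 left out 1 of them did, *Hist1h2bk* at 2.48 times while *Hist1h2af* was at 1.94 times.

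**Figure D4:**
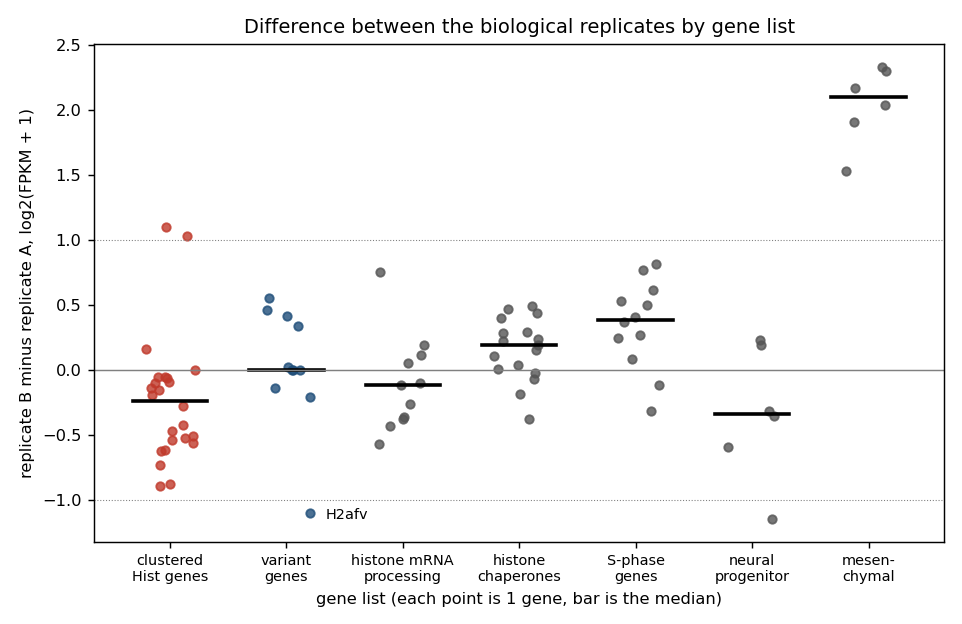
Difference between the biological replicates, B minus A on the log2(FPKM + 1) scale, with 1 point for each gene, a bar for the median of each list and dotted lines at a difference of 1 in either direction. Clustered genes lie mostly below 0 with a median of -0.23 (-0.52 for those above 1 FPKM), S-phase genes mostly above 0 with a median of 0.39, and the mesenchymal markers between 1.53 and 2.34.

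Other genes of histone supply and of DNA replication were listed for comparison. Genes that process histone mRNA were at moderate levels, with 11 of 13 listed in the tables and means from 1.96 to 41.1 FPKM. *Slbp*, which encodes the stem-loop binding protein, had 31.4 ± 3.08 FPKM, and *Cpsf3*, which encodes the endonuclease that cuts histone pre-mRNA, had 41.1 ± 2.47 FPKM. *Sympk* and *Ncbp1*, whose products scaffold the cleavage complex and bind the mRNA cap, had 32.2 ± 0.941 and 31.7 ± 5.96 FPKM. Of the 11 genes 6 had both libraries of A above both of B, where 32% of all genes above 1 FPKM did, and 3 had the reverse, where 28.1% did. *Npat* and *Lsm11* were chosen after their values were seen, being furthest apart toward A and toward B. *Npat*, the coactivator of clustered histone genes, was at 10.3 and 11.0 FPKM in A and 6.28 and 7.44 FPKM in B. The U7 component gene *Lsm11* went the other way, with 1.35 and 1.06 FPKM in A and 2.77 and 2.67 FPKM in B. None of these 11 genes met the criteria for a difference between replicates.

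Histone chaperone genes, which carry histones to DNA, were listed in 17 of 19 cases and had means of at least 3.80 FPKM. *Npm1* had 534 ± 76.2 FPKM, *Rbbp4* 119 ± 2.47 FPKM, *Rbbp7* 114 ± 26.5 FPKM and *Nap1l1* 114 ± 24.6 FPKM. *Hira* and *Daxx*, chosen after their values were seen because their products deposit the replacement H3, had 17.9 ± 3.41 and 30.1 ± 0.274 FPKM. Of the 17 genes 13 had a higher mean in B, as did 4910 of the 10481 genes above 1 FPKM, and none met the criteria. Both libraries of B were above both of A for 8 of the 17, against 28.1%, and the reverse held for 2, against 32%. The 12 S-phase genes had a median difference of 0.39 toward B, where 10 were higher by the mean, against the same 4910 of 10481 genes. Without overlap 6 were higher in B, against 28.1%, and 1 in A, against 32%, and none met the criteria. Among them was *Mcm2*, of the replicative helicase, with 21.0 FPKM in A and 30.3 FPKM in B. The 2 with a lower mean in B were *Mcm7*, with 94.7 and 76.1 FPKM, and *Pcna*, the polymerase clamp gene, with 137 and 127 FPKM.

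Markers of cell types differed between the replicates as well, the mesenchymal ones most. All 6 met the criteria and were higher in B, as 4.78% of genes above 1 FPKM were, with a summed level of 661 and 647 FPKM in A1 and A2 and 2635 and 2978 FPKM in B1 and B2. In bulk RNA fewer cells of a type and less RNA per cell cannot be told apart, and the part of these cell type markers in the difference of the histone genes was not tested. The neuronal markers had the same direction as the clustered histone genes, with a median difference of -0.35. By the mean 5 of 5 were lower in B, against 8306 of all 17337 genes, and 4 of them without overlap, against 26.3% of all genes. Of the 6 progenitor markers 4 had a lower mean in B, as did 5571 of the 10481 genes above 1 FPKM. Without overlap 3 were lower in B, against 32% of genes above 1 FPKM, and the median difference of the 6 was -0.33. Among them *Hes5* met the criteria, as 1.42% of genes above 1 FPKM did, with 398 FPKM in A and 180 FPKM in B, while *Vim* (3026 and 3555 FPKM) and *Nes* (36.3 and 41.8 FPKM) had a higher mean in B.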

How the data were processed

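PolyA-selected RNA of 2 biological replicates, each sequenced as 2 technical libraries, was analysed, and 2 Start-seq samples were not analysed here. The authors aligned reads to rn6 with STAR, and the deposited tables list FPKM, TPM and coverage per gene in the layout of StringTie. The study's methods also name Rsubread, so which tool made the FPKM values is uncertain. Tool versions and the strandedness of counting are not given in the sources used here, so reads of overlapping genes on opposite strands cannot be told apart. Deposited FPKM values are scaled to length and depth, and the depth was judged from the deposited coverage signal per FPKM, which was 24.3, 22.7, 24.4 and 6.83 in A1, A2, B1 and B2. Deposited TPM served as an alternative.

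Rows of 1 gene name were summed, technical libraries were averaged and means ± SD were taken over A and B. A gene was counted as differing between replicates when its mean was at least 1 FPKM, log2(FPKM + 1) differed by at least 1 and the libraries did not overlap. Because the values are not counts and there is 1 condition, no p-values were computed. All variant genes, the 10 highest clustered genes, the clustered genes that differed and up to 4 genes of each list by level were named, and others are marked as chosen after their values were seen or stand as examples of a type. Members and lists were chosen with earlier results of these data known. Promoter letters came from RefSeq (GRCr8) and were not converted to rn6. The counting was tested on simulated data. The work used matplotlib 3.10.9, scipy 1.17.1, numpy 2.4.6 and pandas 2.3.3 under Python 3.11.15.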

Additional observations from a re-analysis of the deposited data

Results flagged for a closer look

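One library stood apart in depth. The coverage per FPKM was 24.3 and 22.7 in the A libraries, 24.4 in B1 but 6.83 in B2, so that the gap of B2 to the nearest library took up most of the range. Of 24 values examined in this way, 1 stood apart, and chance alone flags about 1 in 20. The part of depth in the low values of B2, such as 1.70 FPKM for *Hist3h2bb* against 4.74 to 6.36 FPKM in the other 3 libraries, was not tested.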

How the results depend on the processing

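Of 128 recomputed values for 13 results, 114 stayed within 1 SD or, for counts of genes, within 1.5 times, 14 moved further and 0 reversed direction. Only the median difference of the clustered genes had a sign that could reverse, since that of the variant genes was 0. Taking each row on its own repeated the main values, because each histone gene has 1 row. A mean over A and B always lies within 1 SD of each replicate, so leaving out a replicate could not move such a value. The median of clustered genes was 2.51 in TPM and 2.55 FPKM over genes above a mean of 1 FPKM, and that of variant genes 184 in TPM and 179 FPKM. Without B2 the ratio of medians was 63.4. At a threshold of 5 FPKM 4 clustered genes remained above it. The median difference of clustered genes was -0.52 over genes of at least 1 FPKM, -0.54 with a pseudocount of 0.1 and -0.34 without B1, and that of variant genes 0.19 over genes of at least 1 FPKM. Clustered genes higher in B numbered 1 without A1 and 0 without B1, and variant genes higher in A 0 without A2 or without B1. With 1 replicate alone the ratio of medians was 67.5 to 84.7. The cause was not tested. Leaving out A1, A2 or B1 and averaging on the log scale were added after seeing the data. No paired analysis was possible because A and B are replicates of 1 condition and no test was made. With n = 2, an SD is itself imprecise.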

Other observations

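*Cenpa*, which encodes the centromeric H3 and lies outside the name families above, had 2.10 and 2.11 FPKM in A1 and A2 and 5.02 and 6.51 FPKM in B1 and B2. The replicates did not overlap, and it was higher in B by 1.12 on the log2(FPKM + 1) scale, which met the criteria for a difference that 4.78% of genes above 1 FPKM met.

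In the 13 clustered genes of at most 500 bp the deposited coverage times the span gave a whole number of aligned bases, within 0.01 base, for 25 of 48 values above 0. All values above 0 were whole for 5 genes, *Hist1h2aa*, *Hist1h2ail1*, *Hist1h2ak*, *Hist2h4* and *Hist3h3*, and none for *Hist1h2ba*, *Hist1h2bd* and *Hist2h3c2*. A span need not equal the length over which coverage was taken, and whether fractions of reads were counted was not tested.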
